A study of Mus musculus with 9 samples.

Results

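The genes described here encode the cytosolic machinery that loads amino acids onto transfer RNAs and that starts and extends polypeptide chains on the ribosome. The set held 78 of the 11315 genes measured: 60 with a symbol that began with Eif or Eef and a number (initiation and elongation factors), and 18 cytosolic aminoacyl-tRNA synthetases with a symbol of 1 letter and "ars", or Eprs. They were chosen by symbol, leaving out Eif2s3y, and all 78 passed the filter on low values.

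The study sorted fluorescent cells from the brains of C57BL/6 mice at postnatal day 60 and sequenced their RNA, with 3 libraries for each of 3 reporters. The labels call the PDGFRa-GFP cells oligodendrocyte progenitors, the PLP-GFP cells pre-myelinating oligodendrocytes and the NDRG1-eGFP cells myelinating oligodendrocytes, which make the insulating myelin sheath of axons. The groups are called by their reporters here, since the lineage markers separated them only in part as the labels do. The median log2 value of 10 myelin and mature genes was 17.15 to 17.82 in the PDGFRa-GFP libraries, 17.14 to 17.6 in PLP-GFP and 18.06 to 18.14 in NDRG1-eGFP. The median of 8 progenitor markers was 7.46 to 9.11, 8.09 to 9.43 and 7.13 to 7.74, so that the PDGFRa-GFP and PLP-GFP libraries overlapped. Of single markers, Pdgfra was lower in PLP-GFP against PDGFRa-GFP (log2 fold change -3.92, limma adjusted p = 0.0274) and Vcan in NDRG1-eGFP against PDGFRa-GFP (-4.04, adjusted p = 0.0352), the direction of the labels. Lrrn1, of the same 8 markers, was higher in both of these comparisons (0.55 and 0.49, limma adjusted p = 0.0274 and 0.0329), the opposite direction. In NDRG1-eGFP against PLP-GFP, Pdgfra was higher (2.99, limma adjusted p = 0.0307), again opposite, and Matn4 lower (-1.26, adjusted p = 0.0413). Thus 1 of the 8 was called higher and 1 lower in each comparison. The median of 7 markers of newly formed oligodendrocytes was 11.45 to 12.64 in PDGFRa-GFP, 10.73 to 10.98 in PLP-GFP and 12.35 to 12.69 in NDRG1-eGFP. Of these 7, 0 were higher and 2 lower in PLP-GFP against PDGFRa-GFP, beside 8.46% and 8.53% of all genes. In NDRG1-eGFP against PLP-GFP, 3 were higher and 1 lower, beside 26.1% and 22.2%. The number of brains behind a library, and whether replicates came from separate animals, are not given in the sources used here, so the p-values rest on the spread among these libraries alone, which may be technical.

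Initiation begins when eIF2, carrying GTP and the initiator transfer RNA, joins the small ribosomal subunit together with eIF1, eIF1A, eIF3 and eIF5. The eIF4 proteins recruit the capped messenger RNA, and eEF1 and eEF2 then drive elongation. The exchange factor eIF2B recharges eIF2 with GTP, and phosphorylation of eIF2 alpha by any of the kinases Hri (Eif2ak1), Pkr (Eif2ak2), Perk (Eif2ak3) and Gcn2 (Eif2ak4) blocks eIF2B. White matter is known to be sensitive to this machinery: mutations in the human genes of the eIF2B subunits cause vanishing white matter disease, and mutations in those of the aspartyl, arginyl and glutamyl-prolyl synthetases and of the scaffold protein AIMP1 cause hypomyelinating leukodystrophies.

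Several of these genes have processed pseudogenes, copies of their messenger RNA inserted elsewhere in the genome, and the shared sequence went with the measured differences. The sequences below are 50-base stretches of coding exons that occur letter for letter in a pseudogene transcript of GENCODE M21 on GRCm38. They are shown because a read that falls in them carries no information on which locus it came from. They are in lower case throughout, since every base is shared. The Eif1 stretch lies in exon 2 at chr11:100320739-100320788 (plus strand) and in Gm10157 at chr9:118837801-118837850. The Eif2s3x stretch lies in exon 7 at chrX:94202818-94202867 (minus strand) and in Gm2223 at chrX:33506310-33506359. The Eif4a1 stretch lies in exon 7 at chr11:69668493-69668542 (minus strand) and in Eif4a-ps4 at chr1:60704562-60704611. The Eef1a1 stretch lies in exon 4 at chr9:78479922-78479971 (minus strand) and in Gm13456 at chr2:40556228-40556277. The Eef1g stretch lies in exon 6 at chr19:8972549-8972598 (plus strand) and in Gm4366 at chr7:116825210-116825259.
Eif1: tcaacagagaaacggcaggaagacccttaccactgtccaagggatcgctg
Eif2s3x: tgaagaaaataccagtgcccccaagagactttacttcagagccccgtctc
Eif4a1: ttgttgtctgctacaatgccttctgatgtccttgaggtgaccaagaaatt
Eef1a1: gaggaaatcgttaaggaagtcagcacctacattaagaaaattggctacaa
Eef1g: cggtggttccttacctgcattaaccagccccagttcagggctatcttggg

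Of the 50-base windows of the coding sequence, 94.5% were shared with another locus for Eif1, 95.0% for Eif2s3x, 96.3% for Eif4a1, 72.6% for Eef1a1 and 90.0% for Eef1g. Eif1 shared windows with 17 pseudogene loci and Eef1a1 with 18. Another 4 members had over 50% of coding windows shared: Eif2s2 (73.4%), Eif4e (58.3%), and Eif3j1 and Eif3j2 (99.7% and 98.9%), which share them with each other. No coding window was shared for 51 members, and 18 lay between. The split at 50% was chosen after the values were seen.

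Most members were abundant. With each gene's mean log2 value set per kilobase of transcript, 65 of the 78 lay above the median of all genes (8.85 over 11268 genes with an annotation), and the median member was at 10.42. On this per-length scale the highest levels were those of Eif1 (14.36), which monitors start codon choice, Eef1a1 (13.99), which delivers aminoacyl-tRNA to the ribosome, Eif4h (13.82), a partner of the eIF4A helicase, and Eif5a (13.51), which relieves stalled elongation. The lowest were those of Eif2ak2 (3.63), a kinase activated by double-stranded RNA, Eif3j2 (4.86) and Eif4ebp2 (5.13), a translational repressor that binds the cap-binding protein eIF4E. Eef1a2 and Eif4ebp1 were not analysed here.

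**Figure D1:**
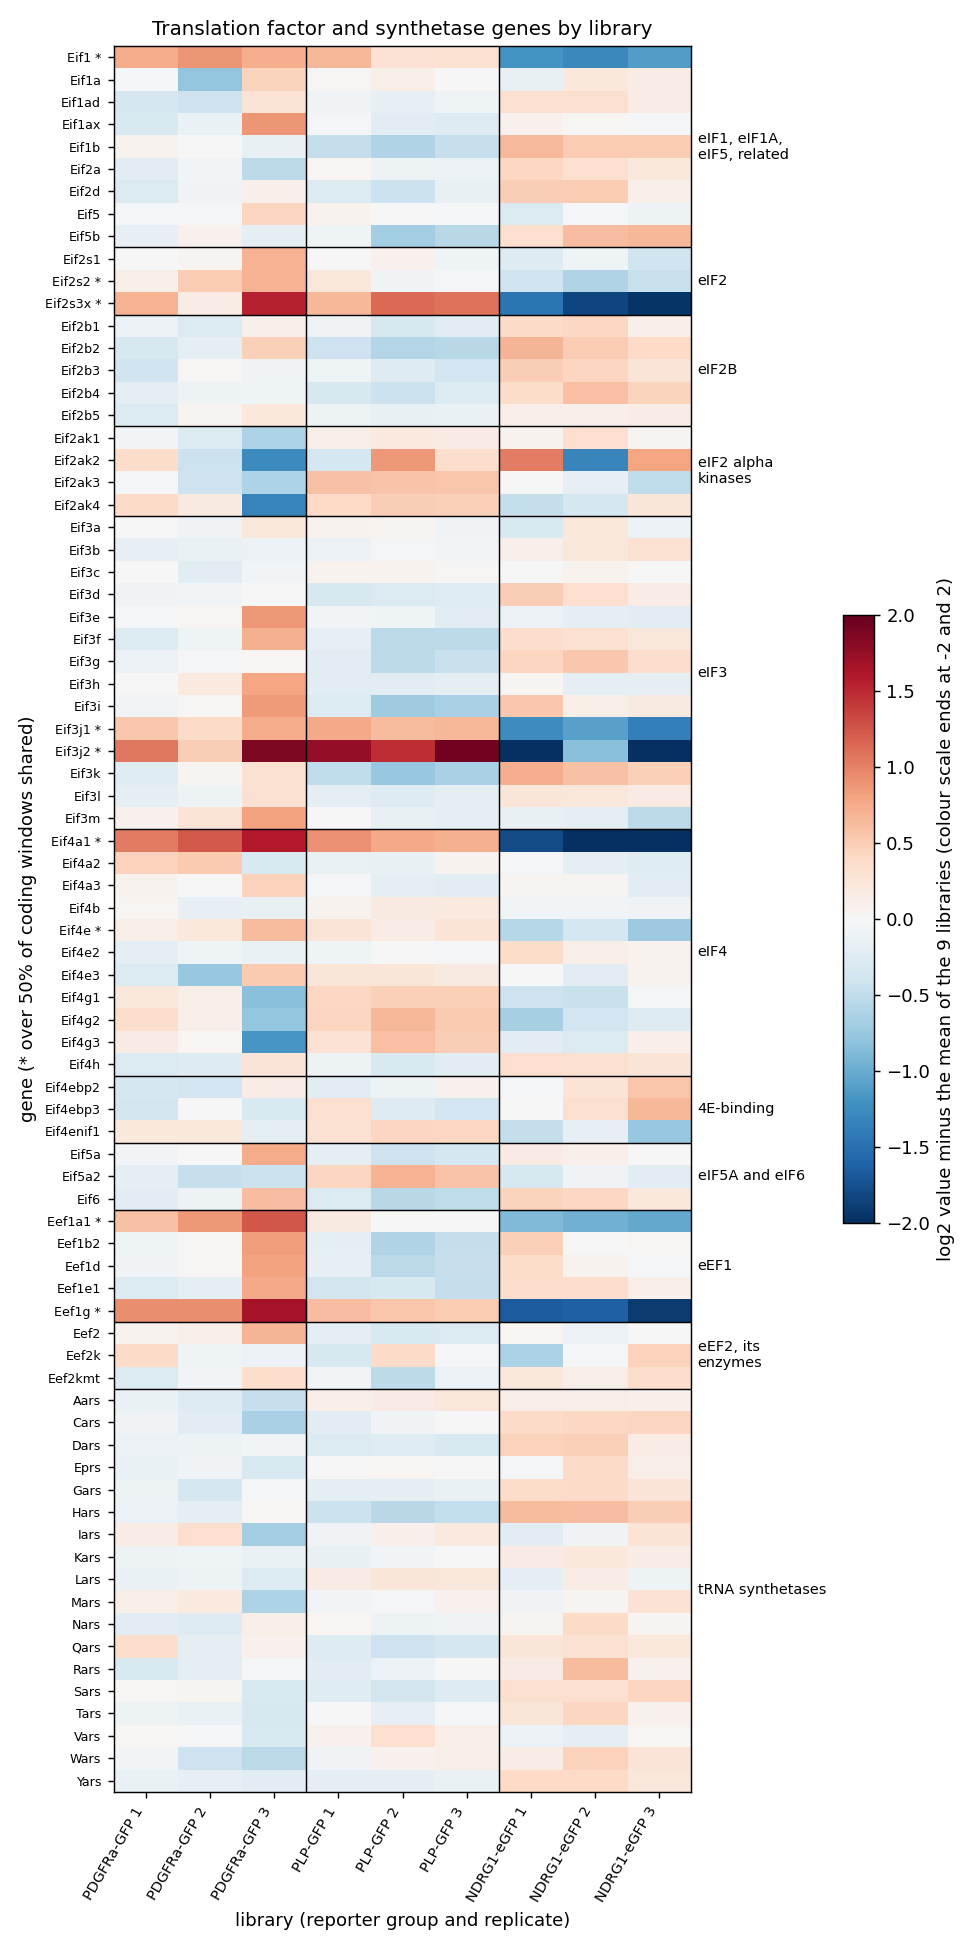
The log2 value of each of the 78 genes (rows, by complex) in each of the 9 libraries (columns), as the difference from the gene's mean over all libraries, with blue below and red above it and the scale ending at -2 and 2. Asterisks mark the 9 genes with over 50% of coding windows shared, which are blue in the 3 NDRG1-eGFP libraries, while most tRNA synthetases there are pale red.

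Differences between groups were tested with limma on the deposited log2 values of all 9 libraries and all 11315 genes, and an adjusted p under 0.05 is called a change. Between NDRG1-eGFP and PLP-GFP cells, NDRG1-eGFP had 24 members higher and 14 lower, against 26.1% of all genes higher and 22.2% lower. The median log2 fold change was 0.22 for the members and 0.09 for all genes. Between NDRG1-eGFP and PDGFRa-GFP cells, 16 members were higher and 10 lower, against 10.7% and 10.4% of all genes. Recentring each library on its median ratio turned these counts into 7 and 12, against 5.22% and 12% of all genes, and moved the median log2 fold change over all genes from 0.14 to 0.04. Between PLP-GFP and PDGFRa-GFP cells, PLP-GFP had 3 members higher and 6 lower, against 8.46% and 8.53% of all genes. Leaving out a library below means 1 of the 6 libraries compared. The 3 comparisons share libraries in pairs, so their values are given side by side and are not independent of each other.

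The direction differed between members with and without close copies. All 9 members with over 50% of coding windows shared were lower in NDRG1-eGFP cells than in both other groups, with median log2 fold changes of -1.92 against PLP-GFP and -1.99 against PDGFRa-GFP. The same held for most genes of this kind: of 490 such genes in the whole table, 72.4% were lower and 3.06% higher against PLP-GFP, and 75.9% were lower and 0.816% higher against PDGFRa-GFP. Of the other 69 members, NDRG1-eGFP had 24 higher and 5 lower when set against PLP-GFP, compared with 27.1% and 19.9% of 10766 such genes. Against PDGFRa-GFP, 16 of the 69 were higher and 1 lower, against 11.1% and 7.38%. Across the 78 genes, the Pearson correlation between the coding share and the log2 fold change was -0.79 for NDRG1-eGFP against PLP-GFP, -0.92 for NDRG1-eGFP against PDGFRa-GFP and -0.21 for PLP-GFP against PDGFRa-GFP. This is a description over genes of the same libraries. How reads with several matching loci were counted is not given in the sources used here, and the part of this step in the lower values was not tested.

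**Figure D2:**
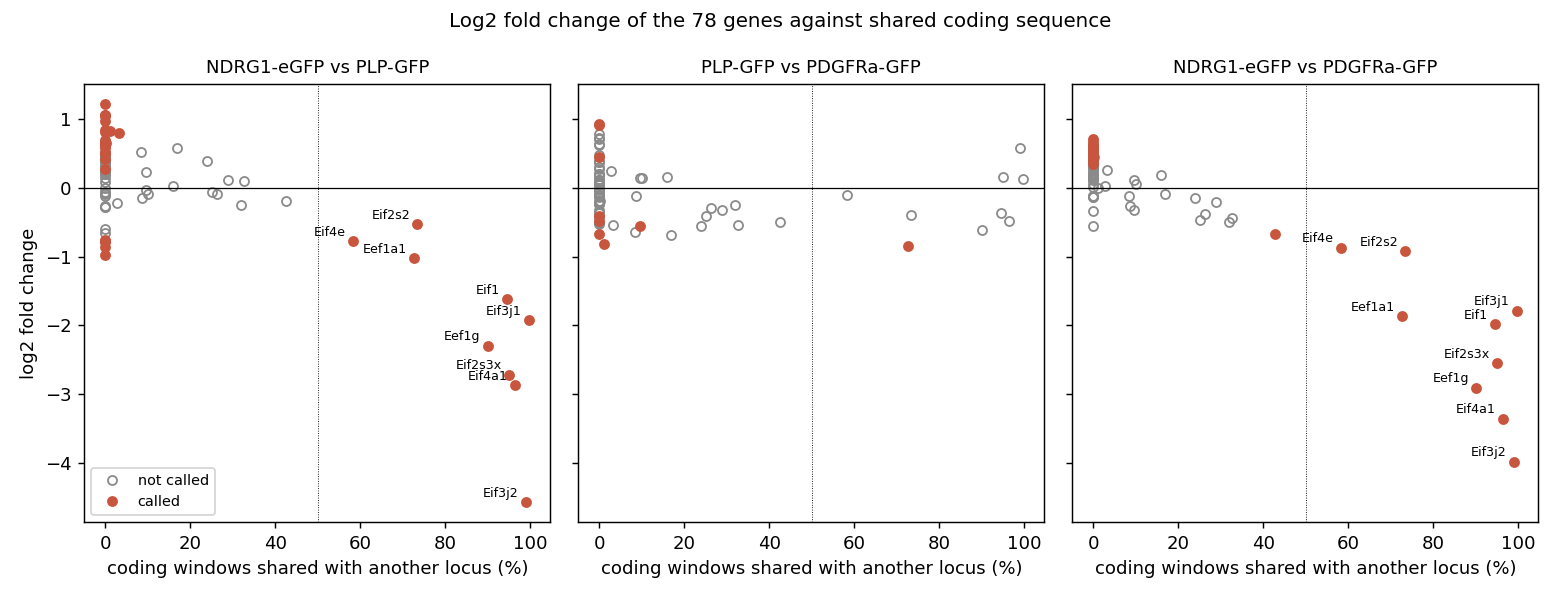
The log2 fold change (vertical axis) of the 78 genes against the percentage of their 50-base coding windows shared with another locus (horizontal axis), with called genes filled and the 50% split dotted. In both NDRG1-eGFP comparisons the 9 genes right of the split lie between -0.52 and -4.57, while in PLP-GFP against PDGFRa-GFP they lie between -0.85 and 0.59, with a median of -0.37.

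Transcript length also went with the differences. Among the 69 members with at most 50% of coding windows shared, the Spearman correlation of log2 fold change with transcript length was -0.58 for NDRG1-eGFP against PLP-GFP, 0.65 for PLP-GFP against PDGFRa-GFP and -0.14 for NDRG1-eGFP against PDGFRa-GFP, again as descriptions over genes. PLP-GFP cells thus held lower values of short transcripts and higher values of long ones, relative to each other group. After each library's trend on length had been removed over all genes, NDRG1-eGFP had 18 members higher and 15 lower when set against PLP-GFP, compared with 18.2% and 15.6% of genes. The counts were 14 and 14 for NDRG1-eGFP against PDGFRa-GFP, against 9.11% and 8.95%, and 2 and 1 for PLP-GFP against PDGFRa-GFP, against 3.73% and 4.38%. The part of length in single results was not tested beyond this removal. The value after removal is given below wherever it ended a call that is reported with its log2 fold change. Removal also made calls. Against PLP-GFP, Aars, Eprs, Tars and Eif4ebp2 were then called higher in NDRG1-eGFP, and Eif3e, Eif3h, Eif3m and Eif4a3 lower. Against PDGFRa-GFP, Eprs, Tars and Eif2ak1 were then called higher, and Eif3e, Eif3h, Eif4a3 and Eif4enif1 lower. Where a gene is said below to be not called, the fit without this removal is meant unless stated.

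**Figure D3:**
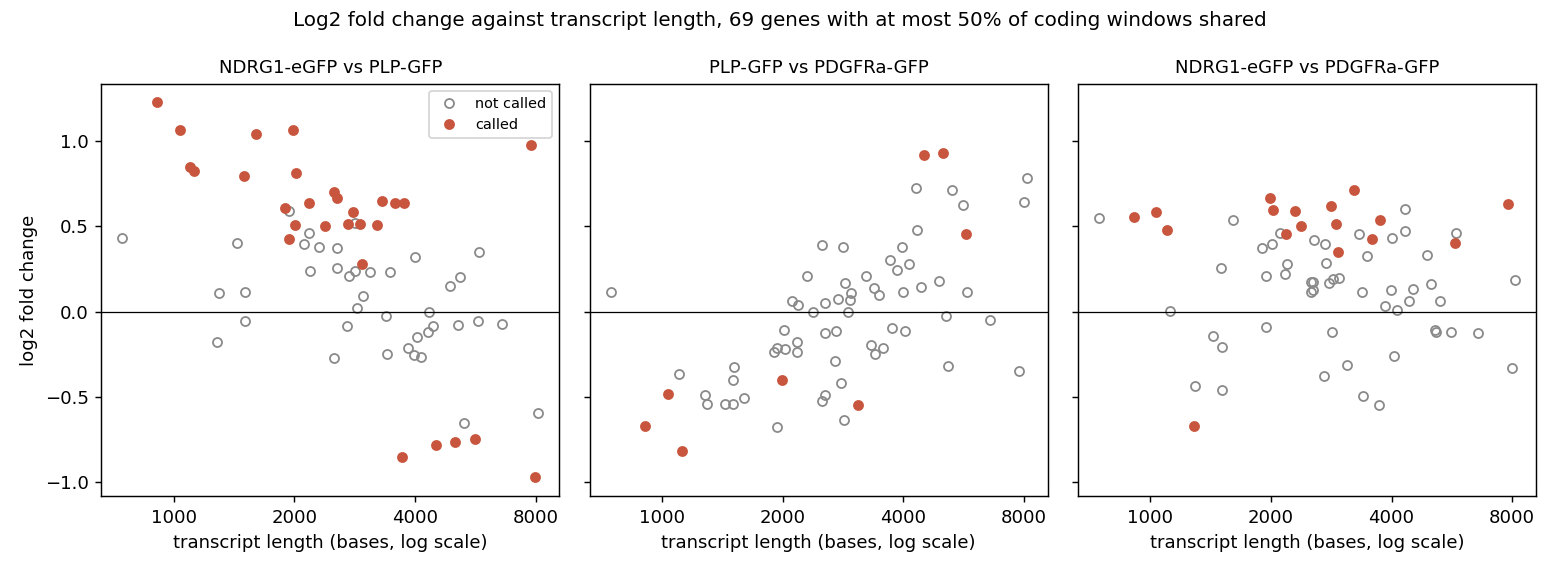
The log2 fold change (vertical axis) against transcript length in bases (horizontal log axis) for the 69 genes with at most 50% of coding windows shared, with called genes filled. Values run down with length in NDRG1-eGFP against PLP-GFP and up in PLP-GFP against PDGFRa-GFP, with little slope in NDRG1-eGFP against PDGFRa-GFP.

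Other properties of the libraries moved with the groups. The PDGFRa-GFP replicate 3 library stood apart: over the members it correlated with the other PDGFRa-GFP libraries at 0.943 and 0.951, while these correlated at 0.992, and it lay above both of them for 45 members and below both for 26. Without it, NDRG1-eGFP had 34 members higher and 16 lower when set against PLP-GFP, compared with 33.4% and 27.6% of all genes. The counts were then 30 and 14 for NDRG1-eGFP against PDGFRa-GFP, against 24.8% and 16.1%, and 4 and 9 for PLP-GFP against PDGFRa-GFP, against 12.8% and 11.8%. The median SD of a member was 0.27 in PDGFRa-GFP, 0.09 in PLP-GFP and 0.14 in NDRG1-eGFP. Microglial markers were higher for 7 of 9 genes in NDRG1-eGFP against PLP-GFP cells, with summed levels of 100.8 to 143 millionths of a library's linear total against 46.9 to 70.4, and 63.9 to 98.9 in PDGFRa-GFP. Fibroblast-like markers were higher for 6 of 7 genes, with sums of 42.8 to 150 in NDRG1-eGFP, 2.31 to 6.62 in PLP-GFP and 98.8 to 186 in PDGFRa-GFP. Immediate-early and dissociation genes were higher for 11 of 17, with sums of 821 to 4618 in NDRG1-eGFP, 516 to 639 in PLP-GFP and 682 to 4292 in PDGFRa-GFP, where replicate 3 was the lowest. No marker was listed at 0, and the part of these lists in the results below was not tested. In such bulk samples fewer cells of a type and less RNA per cell cannot be told apart.

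Among the 3 subunits of eIF2, the differences followed the coding share. Eif2s1, the alpha subunit that the stress kinases phosphorylate, read 11.82, 11.87 and 12.51 in PDGFRa-GFP, 11.81, 11.91 and 11.73 in PLP-GFP and 11.56, 11.72 and 11.42 in NDRG1-eGFP. The NDRG1-eGFP libraries lay below those of both other groups, but neither difference passed the test (-0.25 ± 0.18 SE against PLP-GFP, limma adjusted p = 0.289; -0.50 ± 0.18 against PDGFRa-GFP, adjusted p = 0.0795). Eif2s2, the beta subunit, read 11.91, 12.31 and 12.49, then 12.03, 11.73 and 11.77, then 11.41, 11.2 and 11.36, and was lower in NDRG1-eGFP by log2 fold changes of -0.52 and -0.92 (limma adjusted p = 0.0239 and 0.00416). Eif2s3x, the GTP-binding gamma subunit, read 10.39, 9.85 and 11.24 in PDGFRa-GFP, 10.36, 10.84 and 10.79 in PLP-GFP and 8.23, 7.86 and 7.74 in NDRG1-eGFP. The NDRG1-eGFP libraries lay below all others, while those of PDGFRa-GFP and PLP-GFP overlapped, with log2 fold changes in NDRG1-eGFP of -2.72 ± 0.31 and -2.55 ± 0.31 (limma adjusted p = 0.000135 and 0.000362). The call of Eif2s2 against PLP-GFP was lost without PLP-GFP replicate 1 or 3 or NDRG1-eGFP replicate 2.

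The eIF2B genes, none of which shared a coding window, lay higher in NDRG1-eGFP cells. In every NDRG1-eGFP library each of the 5 exceeded all PLP-GFP libraries, as did 4137 of all 11315 genes. Of the 5, 4 were called, where 26.1% of all genes were called higher. Eif2b2, of the beta subunit, read 11.14, 10.97 and 11.01 in PLP-GFP and 12.23, 12.06 and 11.95 in NDRG1-eGFP, a log2 fold change of 1.04 ± 0.20 (SE; limma adjusted p = 0.00188). Its PDGFRa-GFP values were 11.24, 11.36 and 12.03, of which the last, from replicate 3, reached into the NDRG1-eGFP range, and that difference was not called (0.54, adjusted p = 0.0768 by limma). Without replicate 3, 4 of the 5 genes were called higher in NDRG1-eGFP than in PDGFRa-GFP, in place of 2. The share of all genes called higher was then 24.8%, in place of 10.7%. Eif2b4, of the delta subunit, read 11.51, 11.61 and 11.62 in PDGFRa-GFP, 11.39, 11.27 and 11.43 in PLP-GFP and 12.08, 12.3 and 12.14 in NDRG1-eGFP. The NDRG1-eGFP libraries stood clear of all others, by 0.81 ± 0.12 over PLP-GFP and 0.59 ± 0.12 over PDGFRa-GFP (limma adjusted p = 0.000508 and 0.00734). Eif2b4 shares 8.5% of its exonic bases with Snx17 on the opposite strand, and whether counting used strand is not given in the sources used here.

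Eif2b3, of the catalytic subcomplex's gamma subunit, read 10.91, 11.32 and 11.23, then 11.21, 11.03 and 10.92, then 11.79, 11.73 and 11.55, and was called higher in NDRG1-eGFP by 0.64 over PLP-GFP and 0.54 over PDGFRa-GFP (limma adjusted p = 0.00632 and 0.0304). Eif2b1, of the alpha subunit that binds phosphorylated eIF2, was higher by 0.51 over PLP-GFP (values of 11.72, 11.48 and 11.57 against 12.18, 12.21 and 11.9, limma adjusted p = 0.0149). Eif2b5, of the catalytic epsilon subunit, read 11.72, 11.67 and 11.68 in PLP-GFP and 11.96, 11.92 and 11.97 in NDRG1-eGFP, without overlap, but the difference of 0.26 did not pass (limma adjusted p = 0.151). The log2 fold changes of the 5 against PLP-GFP kept their sign after the length trend had been removed, with a median of 0.42 in place of 0.64. In place of 4, 3 were then called, beside 18.2% of genes called higher. The call of Eif2b1 was lost (0.10, limma adjusted p = 0.492). The Eif2b1 call was also lost without PLP-GFP replicate 2 or 3 or NDRG1-eGFP replicate 1 or 2, and that of Eif2b3 against PDGFRa-GFP without PDGFRa-GFP replicate 1 or NDRG1-eGFP replicate 1 or 2. Recentring on the median ratio, a replicate block and fitting only the 2 groups compared each ended this Eif2b3 call as well.

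Of the 4 kinases, Eif2ak3 was the one called. This gene encodes Perk, the kinase of the endoplasmic reticulum that senses unfolded protein. It read 11.68, 11.28 and 11.07 in PDGFRa-GFP, 12.28, 12.26 and 12.24 in PLP-GFP and 11.71, 11.53 and 11.19 in NDRG1-eGFP. The PLP-GFP libraries were the highest and did not overlap with either other group, by 0.92 ± 0.18 over PDGFRa-GFP and with NDRG1-eGFP at -0.79 ± 0.18 below them (limma adjusted p = 0.0117 and 0.00519). The first of these calls was lost without PLP-GFP replicate 2 or 3. Eif2ak4, which senses uncharged transfer RNA, read 9.95, 10.04 and 10.03 in PLP-GFP and 9.08, 9.19 and 9.79 in NDRG1-eGFP, not called (-0.66, limma adjusted p = 0.189). Its PDGFRa-GFP values of 9.94 and 9.73 in replicates 1 and 2 and 8.21 in replicate 3 had the largest SD of any member in that group. Eif2ak1, the heme-regulated kinase, read 12.4, 12.18 and 11.85 in PDGFRa-GFP, against 12.58 to 12.66 in PLP-GFP and 12.52 to 12.81 in NDRG1-eGFP, and both differences fell just short (0.48, adjusted p = 0.0556, and 0.48, adjusted p = 0.0502, by limma). With the length trend removed, Eif2ak1 was called higher in NDRG1-eGFP than in PDGFRa-GFP (0.52, limma adjusted p = 0.0192). Eif2ak1 shares 11.3% of its exonic bases with Aimp2 on the opposite strand. Eif2ak2 ranged from 4.41 to 6.75 with overlap of all groups.

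**Figure D4:**
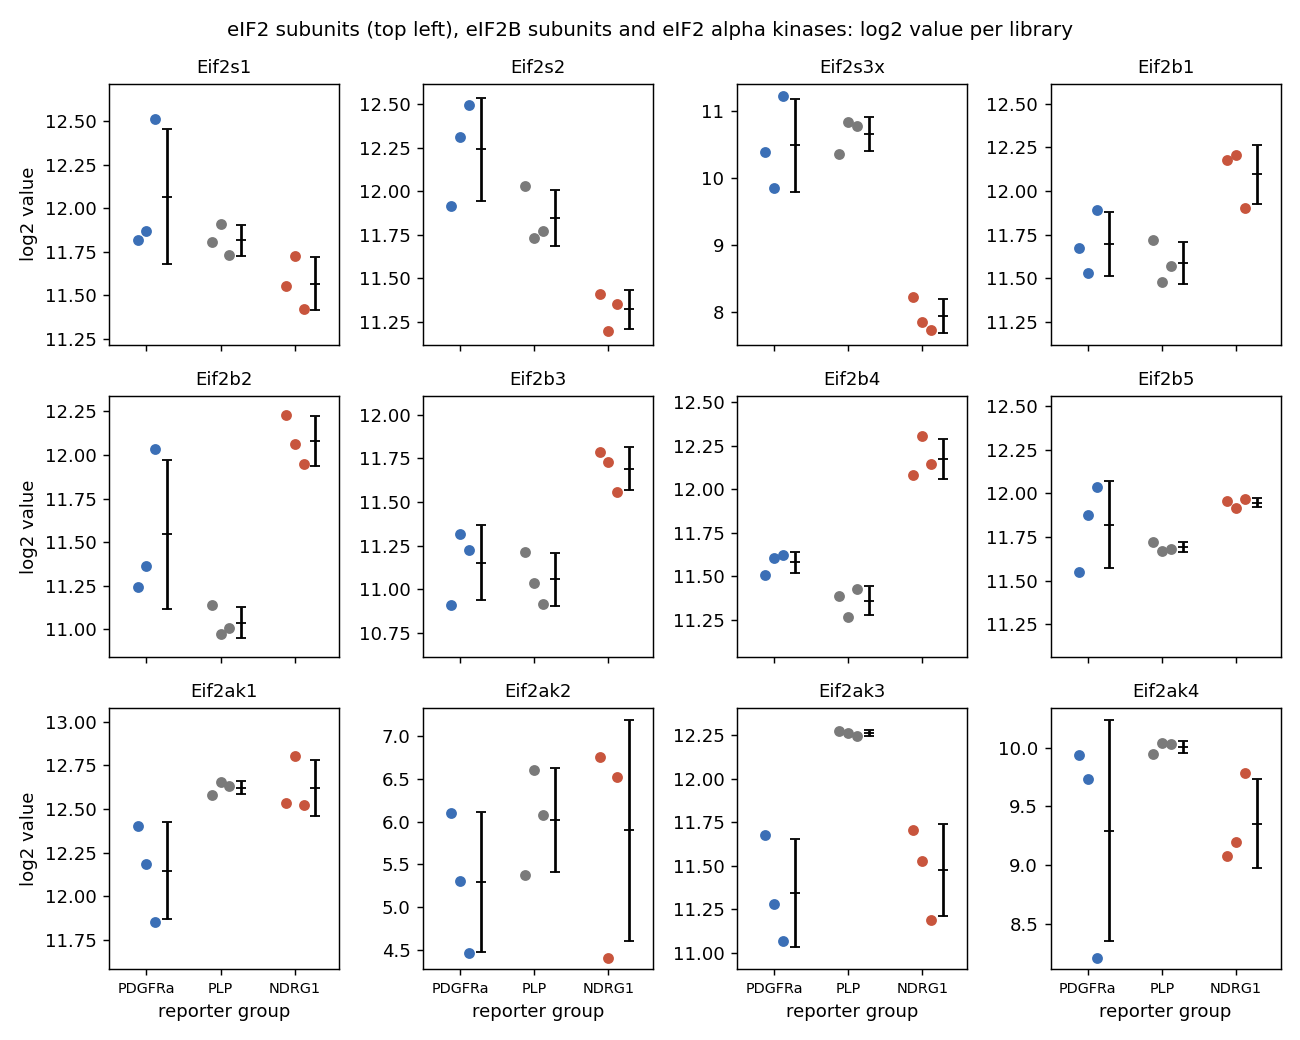
Log2 values per library (points) with the group mean and SD (black) for the 3 eIF2 subunits, 5 eIF2B subunits and 4 eIF2 alpha kinases, with the 3 reporter groups along each horizontal axis and a vertical axis of its own per gene. The eIF2B genes sit highest in NDRG1-eGFP, Eif2s3x sits about 2.7 below PLP-GFP there, and Eif2ak3 is highest in PLP-GFP.

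The integrated stress response, the set of genes that eIF2 alpha phosphorylation and the transcription factor ATF4 turn on, had 24 of 29 listed genes measured. In NDRG1-eGFP against PLP-GFP cells, 6 were higher and 4 lower, near the shares over all genes (26.1% and 22.2%), with a median log2 fold change of -0.23. After removal of the length trend the counts were 2 and 3, against 18.2% and 15.6% of genes. Among the higher were Atf4 itself (0.94 ± 0.19, limma adjusted p = 0.0029) and Ddit3, the factor CHOP (0.60 ± 0.16, adjusted p = 0.0096). Both calls were lost with the length trend removed (0.47, limma adjusted p = 0.123, and 0.13, adjusted p = 0.744). Against PDGFRa-GFP, Atf4 overlapped and was not called (0.54, limma adjusted p = 0.0711). Among the lower were Slc7a11, a cystine transporter (-4.22 ± 0.54, limma adjusted p = 0.00025), and Phgdh of serine synthesis (-1.06 ± 0.15, adjusted p = 0.00041), of whose coding windows 74.3% were shared. Ppp1r15b was lower as well (-0.93 ± 0.17, limma adjusted p = 0.00149), a call lost with the length trend removed (-0.46, adjusted p = 0.0847). Against PDGFRa-GFP, 2 were higher and 3 lower, against 10.7% and 10.4% of all genes, and between PLP-GFP and PDGFRa-GFP 0 were called. Ddit3 overlaps the synthetase gene Mars on the opposite strand.

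The genes that act with eIF2 at the start codon split the same way. Eif1 read 15.51, 15.65 and 15.49 in PDGFRa-GFP, 15.43, 15.05 and 15.06 in PLP-GFP and 13.56, 13.47 and 13.65 in NDRG1-eGFP, -1.62 ± 0.13 against PLP-GFP and -1.99 ± 0.13 against PDGFRa-GFP (limma adjusted p = 1.15e-05 and 2.28e-06). Its paralog Eif1b, with no shared coding window, went the other way. Eif1b read 12.47, 12.39 and 12.25, then 11.92, 11.79 and 11.94, then 13.05, 12.91 and 12.91. The NDRG1-eGFP values were the highest, by 1.07 ± 0.11 and 0.58 ± 0.11 (limma adjusted p = 8.59e-05 and 0.00653), and the PLP-GFP values the lowest. With the length trend removed, the difference from PDGFRa-GFP was as large but no longer called (0.58, limma adjusted p = 0.0525), and the call of lower PLP-GFP values (-0.49, adjusted p = 0.0224) was lost too (-0.01, adjusted p = 0.987), as it was without PDGFRa-GFP replicate 2 or PLP-GFP replicate 2 or 3.

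Eif5b, the GTPase that joins the ribosomal subunits, read 11.11, 10.52 and 10.64 in PLP-GFP and 11.54, 11.82 and 11.86 in NDRG1-eGFP, 0.98 ± 0.18 higher (limma adjusted p = 0.00157). Its PDGFRa-GFP values were 11.03, 11.29 and 11, and that difference of 0.63 was called (limma adjusted p = 0.0315) but lost without PDGFRa-GFP replicate 1 or NDRG1-eGFP replicate 2 or 3. Eif5b is one of the longest transcripts of the set at 7797 bases, so its direction was opposite to that of most long members, and it grew to 1.58 with the length trend removed. Rev1, on the opposite strand, overlaps 15.9% of its exonic bases. Eif2d, a factor of non-canonical initiation, was higher by 0.65 against PLP-GFP (limma adjusted p = 0.00882), and Eif2a, another one, by 0.59 against PDGFRa-GFP (adjusted p = 0.0234). The Eif2a call was lost without NDRG1-eGFP replicate 1 or 2 and with the length trend removed (0.41, limma adjusted p = 0.0862). Eif1a, Eif1ad, Eif1ax and Eif5 were called in no comparison, with log2 fold changes from -0.32 to 0.42.

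eIF3, the scaffold that bridges the small subunit and the messenger RNA, was measured by 14 genes. NDRG1-eGFP had 7 of them higher and 2 lower when set against PLP-GFP, beside 26.1% and 22.2% of all genes. Eif3k led with 11.5, 11.25 and 11.37 in PLP-GFP and 12.73, 12.59 and 12.49 in NDRG1-eGFP, a log2 fold change of 1.23 ± 0.16 (limma adjusted p = 0.000231) and the highest of all 78 genes. Its PDGFRa-GFP values of 11.76, 12.07 and 12.31 lay between, above all PLP-GFP libraries and below all NDRG1-eGFP libraries, and both gaps were called (0.67 and 0.56 in size; limma adjusted p = 0.0207 and 0.0309). Eif3g, a subunit needed for scanning, read 12.44, 12.52 and 12.6, then 12.33, 12.01 and 12.12, then 12.99, 13.1 and 12.91, higher in NDRG1-eGFP by 0.85 and 0.48 (limma adjusted p = 0.000474 and 0.0217). Eif3i was higher by 0.82 over PLP-GFP and PLP-GFP lay below PDGFRa-GFP at -0.82 (limma adjusted p = 0.0163 and 0.0412), and Eif3d, which can bind the cap, was higher by 0.61 (adjusted p = 0.00276).

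The higher genes differed in length: Eif3k is 909 bases, Eif3g 1101 and Eif3i 1123, against 1899 for Eif3d, 1942 for Eif3l, 2514 for Eif3f and 2945 for Eif3b. Eif3m, Eif3h and Eif3e, of 1283, 1295 and 1506 bases, were not called against PLP-GFP. With the length trend removed they were called lower in NDRG1-eGFP there (-0.69, -0.40 and -0.56, limma adjusted p = 0.00137, 0.0278 and 0.0207). Removing the length trend left 2 of the 14 higher and 5 lower against PLP-GFP, beside 18.2% and 15.6% of genes. Eif3k then stood at 0.76 and Eif3g at 0.36, both still called, while the calls of Eif3d (0.18, limma adjusted p = 0.212) and Eif3i (0.34, adjusted p = 0.0794) were lost. Those of Eif3i and Eif3k between PLP-GFP and PDGFRa-GFP were lost as well (-0.37 and -0.15, limma adjusted p = 0.119 and 0.398). The call of Eif3i against PLP-GFP was also lost without PLP-GFP replicate 2 or 3 or NDRG1-eGFP replicate 1. Those of Eif3i and Eif3k between PLP-GFP and PDGFRa-GFP were lost without PDGFRa-GFP replicate 2 or PLP-GFP replicate 2 or 3, and those of Eif3g and Eif3k against PDGFRa-GFP without replicate 1 or 2 of either group.

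The lower members of eIF3 were the twin genes Eif3j1 and Eif3j2, whose product helps to release messenger RNA from the small subunit. Eif3j1 read 11.25, 11.09 and 11.45 in PDGFRa-GFP, 11.47, 11.34 and 11.37 in PLP-GFP and 9.45, 9.63 and 9.35 in NDRG1-eGFP, so that the NDRG1-eGFP libraries were lower by log2 fold changes of -1.92 and -1.79 (limma adjusted p = 8.9e-06 and 1.58e-05). Eif3j2 read 7.16, 6.6 and 7.97, then 7.87, 7.58 and 8.04, then 2.46, 5.27 and 2.04, at -4.57 ± 0.78 and -3.99 ± 0.78 (limma adjusted p = 0.00107 and 0.00619). NDRG1-eGFP replicate 2 was the highest of its group for Eif3j2, and still below every library of the others. Since the genes share nearly all coding windows with each other, the value of each one is uncertain. Eif3j1 also overlaps Spg11 on the opposite strand in 20.5% of its exonic bases.

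Eif3m, of whose coding windows 42.6% were shared, was the 1 member outside the 9 to be lower against PDGFRa-GFP. It read 12.05, 12.24 and 12.78 in PDGFRa-GFP and 11.82, 11.79 and 11.44 in NDRG1-eGFP (-0.67 ± 0.19, limma adjusted p = 0.0311). The call was lost without PDGFRa-GFP replicate 2 or any 1 of the NDRG1-eGFP libraries. Eif3b, which forms the core of the complex with Eif3a, was higher by 0.28 and 0.35 (limma adjusted p = 0.0487 and 0.0396), with PLP-GFP values of 13.04, 13.13 and 13.1 against 13.26, 13.39 and 13.46. These small differences did not overlap between groups, but leaving out any of 5 of the 6 libraries ended each call, as did removing the length trend (0.16 and 0.23, limma adjusted p = 0.21 and 0.11). The large subunits Eif3a and Eif3c lay between -0.11 and 0.14 in all 3 comparisons and were not called.

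Of the 11 eIF4 genes, 4 were lower in NDRG1-eGFP against PLP-GFP cells and 1 higher, against 22.2% and 26.1% of all genes, with a median log2 fold change of -0.27. Among the 4 were Eif4a1 and Eif4e, which have over 50% of coding windows shared. Removing the length trend left 2 lower and 0 higher, against 15.6% and 18.2% of genes. Eif4a1, the main RNA helicase of the complex, read 14.07, 14.26 and 14.62 in PDGFRa-GFP, 13.96, 13.8 and 13.75 in PLP-GFP and 11.26, 10.62 and 11.02 in NDRG1-eGFP. This gap of -2.87 ± 0.18 and -3.36 ± 0.18 (limma adjusted p = 2.87e-06 and 7.8e-07) was the second largest in size among the members, after Eif3j2. Its paralog Eif4a2, with 26.3% of coding windows shared, read 12.45, 12.44 and 12.65 in PLP-GFP and 12.54, 12.4 and 12.33 in NDRG1-eGFP and was called in no comparison (-0.09, limma adjusted p = 0.746, against PLP-GFP). Eif4a3, the helicase of the exon junction complex, was not called either. Eif4e, the cap-binding protein, read 12.61, 12.5 and 12.62 in PLP-GFP and 11.78, 12.01 and 11.63 in NDRG1-eGFP, and 12.49, 12.56 and 12.98 in PDGFRa-GFP (-0.77 and -0.87, limma adjusted p = 0.00277 and 0.00406). Its call against PLP-GFP was lost with the length trend removed (-0.39, limma adjusted p = 0.132).

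The scaffold genes Eif4g1, Eif4g2 and Eif4g3, with at most a trace of shared coding windows, were highest in PLP-GFP. Eif4g2, which serves cap-independent initiation, read 16.07, 15.84 and 14.94 in PDGFRa-GFP, 16.15, 16.39 and 16.25 in PLP-GFP and 15.06, 15.34 and 15.46 in NDRG1-eGFP. The NDRG1-eGFP libraries were below all PLP-GFP libraries, at -0.98 ± 0.25 (limma adjusted p = 0.00862), and PDGFRa-GFP replicate 3 was the lowest of the 9. Eif4g1, the scaffold of cap-dependent initiation, read 13.3, 13.35 and 13.36 in PLP-GFP and 12.46, 12.44 and 12.86 in NDRG1-eGFP (-0.75 ± 0.25, limma adjusted p = 0.0285), with 13.11 and 12.99 in PDGFRa-GFP replicates 1 and 2 and 12.04 in replicate 3. Eif4g3 differed by -0.60 and did not pass (limma adjusted p = 0.121). These are long transcripts of 5638 to 8134 bases, and with the length trend removed the values were -0.27, -0.36 and 0.02 for Eif4g1, Eif4g2 and Eif4g3, with no call (limma adjusted p = 0.307 and 0.143 for the calls of Eif4g1 and Eif4g2 that were lost). The Eif4g1 call was lost without any 1 of the PLP-GFP libraries or without NDRG1-eGFP replicate 1 or 2.

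Eif4h was the 1 higher gene of the complex, at 15.17, 14.97 and 15.04 in PLP-GFP and 15.6, 15.6 and 15.53 in NDRG1-eGFP (0.52 ± 0.15, limma adjusted p = 0.0166). That call was lost with the length trend removed (0.33, limma adjusted p = 0.0974) and without PLP-GFP replicate 2 or 3 or NDRG1-eGFP replicate 1. Eif4b, Eif4e2 and Eif4e3 were called in no comparison, with log2 fold changes from -0.27 to 0.39. Of the genes whose products bind eIF4E, Eif4enif1, which carries eIF4E into the nucleus, was lower in NDRG1-eGFP. It read 11.01, 11.13 and 11.12 in PLP-GFP and 10.22, 10.54 and 9.95 in NDRG1-eGFP (-0.85 ± 0.18, limma adjusted p = 0.00368), with little change on removing the length trend (-0.76). Its PDGFRa-GFP values were 10.92, 10.93 and 10.5. The translational repressors Eif4ebp2 (7.27 to 8.21) and Eif4ebp3 (6.39 to 7.43) were low in all libraries and called in no comparison, and Eif4ebp3 shares 67.3% of its exonic bases with a readthrough gene model on the same strand. With the length trend removed, Eif4ebp2 was called higher in NDRG1-eGFP than in PLP-GFP (0.84, limma adjusted p = 0.043).

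Elongation factors repeated the pattern of shared sequence. Eef1a1 read 15.42, 15.7 and 16.08 in PDGFRa-GFP, 15.01, 14.83 and 14.82 in PLP-GFP and 13.94, 13.87 and 13.8 in NDRG1-eGFP. Each group was clear of the others, with log2 fold changes of -0.85 for PLP-GFP against PDGFRa-GFP, -1.02 for NDRG1-eGFP against PLP-GFP and -1.86 for NDRG1-eGFP against PDGFRa-GFP (limma adjusted p = 0.0101, 0.000669 and 1.98e-05). The first of these calls was lost without PLP-GFP replicate 2 or 3. Eef1g, the gamma subunit of its exchange complex, read 12.02, 12.01 and 12.75, then 11.7, 11.64 and 11.6, then 9.42, 9.46 and 9.18, at -2.30 ± 0.20 and -2.91 ± 0.20 in NDRG1-eGFP (limma adjusted p = 1.99e-05 and 3.3e-06).

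The partners of Eef1g in the exchange complex were not called lower. Eef1b2 read 11.15, 10.73 and 10.86 in PLP-GFP and 11.81, 11.33 and 11.37 in NDRG1-eGFP (0.59, limma adjusted p = 0.0673), and Eef1d read 11.76, 11.39 and 11.47 against 12.29, 12.01 and 11.89 (0.52, adjusted p = 0.0767). Both lay above PLP-GFP without overlap and neither was called. Eef2, the translocation factor, was lower in PLP-GFP when set against PDGFRa-GFP. It read 14.31, 14.35 and 14.92 in PDGFRa-GFP and 14.05, 13.94 and 13.95 in PLP-GFP (-0.55 ± 0.16, limma adjusted p = 0.0387). That call was lost without PDGFRa-GFP replicate 2 or any 1 of the PLP-GFP libraries. With the length trend removed the difference was no smaller but just missed the threshold (-0.57, limma adjusted p = 0.0556). The Eef2 kinase Eef2k and the methyltransferase Eef2kmt were called in no comparison.

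Eif5a2, the second gene of the hypusine-bearing factor eIF5A, was with Eif2ak3 called both higher in PLP-GFP against PDGFRa-GFP and lower in NDRG1-eGFP against PLP-GFP. It read 11.07, 10.81 and 10.84 in PDGFRa-GFP, 11.71, 11.96 and 11.84 in PLP-GFP and 10.95, 11.2 and 11.05 in NDRG1-eGFP. The PLP-GFP libraries stood clear, by 0.93 ± 0.14 over PDGFRa-GFP and with NDRG1-eGFP at -0.77 ± 0.14 (limma adjusted p = 0.00423 and 0.00149), and both calls held in each fit that left out a library. With the length trend removed both stayed called, at 0.67 and -0.38. The main gene Eif5a was not called (0.40 against PLP-GFP, limma adjusted p = 0.111). Eif6, which keeps the large ribosomal subunit free until it is needed, read 12.25, 11.99 and 12.03 in PLP-GFP and 12.98, 12.94 and 12.74 in NDRG1-eGFP (0.80 ± 0.20, limma adjusted p = 0.0087), and its call was lost with the length trend removed (0.30, adjusted p = 0.11).

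Of the 18 tRNA synthetase genes, 7 were higher in NDRG1-eGFP and 0 lower against PLP-GFP, where 26.1% and 22.2% of all genes were. Against PDGFRa-GFP, 8 were higher and 0 lower, where 10.7% and 10.4% of all genes were. Their summed linear values made 1832 to 1996 millionths of a library in NDRG1-eGFP, 1511 to 1573 in PLP-GFP and 1360 to 1560 in PDGFRa-GFP. With the length trend removed the counts were 9 and 0, and 8 and 0, against 18.2% and 15.6%, and 9.11% and 8.95% of genes. Without PDGFRa-GFP replicate 3 they were 10 and 0, and 11 and 0, against 33.4% and 27.6%, and 24.8% and 16.1% of all genes. Only 1 of the 18, Iars, shared coding windows with another locus (10.1%).

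Hars, of histidine, differed most from PLP-GFP, with 12.3, 12.23 and 12.44 in PDGFRa-GFP, 11.98, 11.86 and 11.92 in PLP-GFP and 13.04, 13.03 and 12.9 in NDRG1-eGFP. Its log2 fold changes were 1.07 ± 0.11 over PLP-GFP and 0.67 ± 0.11 over PDGFRa-GFP (limma adjusted p = 7.63e-05 and 0.00304), and 9.8% of its exonic bases overlap the mitochondrial gene Hars2 on the opposite strand. Yars, of tyrosine, read 12.43, 12.39 and 12.35, then 12.36, 12.37 and 12.42, then 12.96, 12.95 and 12.79, higher by 0.52 and 0.51 (limma adjusted p = 0.00309 and 0.00867). Both genes kept these calls in each fit that left out a library.

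Dars, of aspartate, read 12.65, 12.65 and 12.71 in PDGFRa-GFP, 12.48, 12.52 and 12.46 in PLP-GFP and 13.23, 13.23 and 12.92 in NDRG1-eGFP (0.64 ± 0.12 and 0.46 ± 0.12, limma adjusted p = 0.00175 and 0.0227). Sars, of serine, read 13.48, 13.51 and 13.16, then 13.21, 13.09 and 13.2, then 13.77, 13.77 and 13.89 (0.64 and 0.42, limma adjusted p = 0.00216 and 0.0348). Gars, of glycine, was higher by 0.50 over both groups (limma adjusted p = 0.00594 and 0.0157), with 12.94, 12.96 and 12.84 in NDRG1-eGFP against 12.22 to 12.53 in the other 6 libraries. For these 3 genes the NDRG1-eGFP libraries lay above every other library.

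Cars, of cysteine, was higher by 0.51 over PLP-GFP and 0.72 over PDGFRa-GFP (limma adjusted p = 0.0281 and 0.0141), with 11.13, 11.16 and 11.17 in NDRG1-eGFP, 10.53, 10.67 and 10.74 in PLP-GFP and 10.68, 10.53 and 10.09 in PDGFRa-GFP. Wars, of tryptophan, was called against PDGFRa-GFP (0.62 ± 0.15, limma adjusted p = 0.0177) with values of 12.32, 11.96 and 11.83 there and 12.52, 12.82 and 12.62 in NDRG1-eGFP. Aars, of alanine, was called against PDGFRa-GFP in both other groups, whose libraries overlapped. It read 13.02, 12.89 and 12.69 in PDGFRa-GFP, 13.27, 13.32 and 13.38 in PLP-GFP and 13.28, 13.28 and 13.26 in NDRG1-eGFP. Both were above PDGFRa-GFP, by 0.45 and 0.40 (limma adjusted p = 0.0269 and 0.0335), and Exosc6 on the same strand overlaps 23.1% of its exonic bases.

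Of the genes tied to hypomyelination in humans, Dars was thus called in both comparisons, while Rars read 10.05, 10.14 and 10.26 in PLP-GFP and 10.42, 10.89 and 10.34 in NDRG1-eGFP, not called (0.40, limma adjusted p = 0.0847). Eprs read 13.12, 13.15 and 13.11 in PLP-GFP and 13.08, 13.51 and 13.24 in NDRG1-eGFP and was not called either (0.15, limma adjusted p = 0.36). With the length trend removed, Eprs was called higher in NDRG1-eGFP than in PLP-GFP and PDGFRa-GFP (0.52 and 0.45, limma adjusted p = 0.00715 and 0.0249), and Rars was not called. These 2 genes were singled out after their values were seen. The partners of the synthetases were all higher in NDRG1-eGFP than in PLP-GFP: Aimp1 by 0.93, Aimp2 by 0.91, and the phenylalanyl subunits Farsa by 0.48 and Farsb by 0.43 (limma adjusted p = 0.0023, 0.0033, 0.028 and 0.027), 4 of 4 genes. Against PDGFRa-GFP 3 of the 4 were called, Aimp2 not, and 26.1% and 10.7% of all genes were called higher in these comparisons. With the length trend removed 2 and 1 of the 4 were called, beside 18.2% and 9.11% of genes. The calls lost were those of Farsa and Farsb, at 0.03 and 0.04 over PLP-GFP (limma adjusted p = 0.912 and 0.859) and 0.40 and 0.44 over PDGFRa-GFP (adjusted p = 0.159 and 0.0551). Eef1e1, which in spite of its name is a further scaffold of the multi-synthetase complex, was higher by 0.66 over PLP-GFP (limma adjusted p = 0.0419), and leaving out any 1 of the 6 libraries ended that call, as did removing the length trend (0.43, adjusted p = 0.174).

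Among the synthetase calls against PLP-GFP, 5 of 6 tested in this way held in each fit that left out a library, and that of Cars was lost in each of them. Against PDGFRa-GFP, those of Hars, Yars and Cars held in each such fit, and 5 of 8 were lost in some: without NDRG1-eGFP replicate 2 all 5 (Aars, Dars, Gars, Sars and Wars), without NDRG1-eGFP replicate 1 all but Wars, without NDRG1-eGFP replicate 3 Aars and Sars, without PDGFRa-GFP replicate 1 Dars and Sars, and without PDGFRa-GFP replicate 2 all but Sars. The calls between PLP-GFP and PDGFRa-GFP, Aars higher and Hars lower in PLP-GFP (-0.40, limma adjusted p = 0.0371), were lost without PDGFRa-GFP replicate 2 or PLP-GFP replicate 2 or 3, and for Hars without PDGFRa-GFP or PLP-GFP replicate 1 as well. Removing the length trend ended both (Aars 0.16 and Hars -0.20, limma adjusted p = 0.286 and 0.184). It also ended the calls of Gars over PLP-GFP and PDGFRa-GFP (0.21 and 0.33, limma adjusted p = 0.13 and 0.0506) and of Dars over PDGFRa-GFP (0.26, adjusted p = 0.0895). Fitting only the 2 groups compared ended the calls of Aars, Cars, Dars, Gars, Sars and Wars over PDGFRa-GFP. Recentring on the median ratio ended those of Aars, Dars and Sars over PDGFRa-GFP and that of Cars over PLP-GFP.

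**Figure D5:**
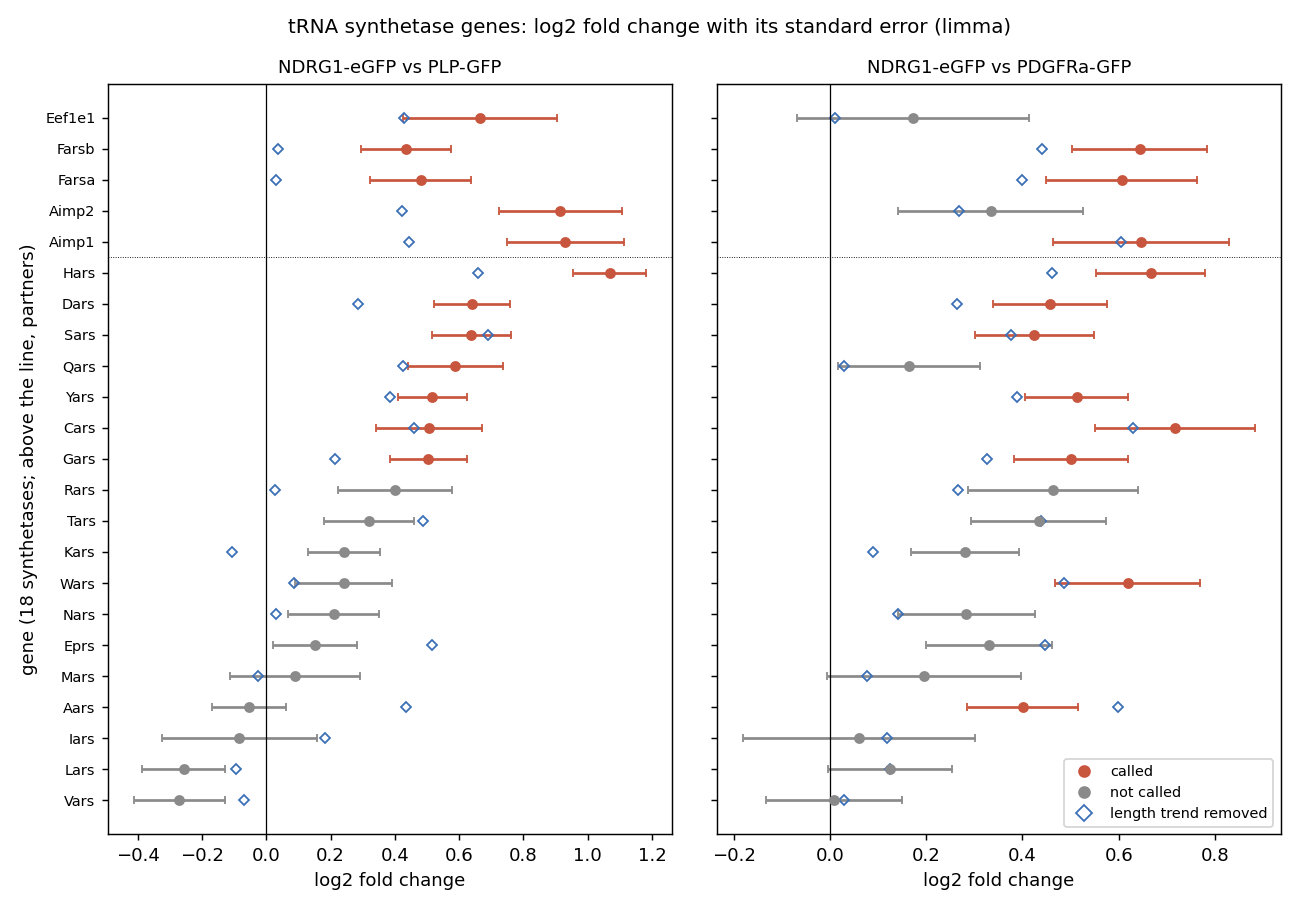
Log2 fold change (horizontal axis, circles with the limma standard error as bars) of the 18 synthetase genes and, above the dotted line, 5 partners (vertical axis), for NDRG1-eGFP against PLP-GFP (left) and against PDGFRa-GFP (right), with called genes in red and values after removal of the length trend as open diamonds. All called genes lie right of 0, from 0.40 to 1.07.

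The promoters of the synthetase genes are shown because ATF4, the factor of the stress response described above, is known to act on such genes through the C/EBP-ATF response element, which the letters TTGCATCA and TTTCATCA spell in 2 of its forms. RefSeq promoter sequences (GRCm38.p6, from 250 bases before to 50 after the start) were at hand for 58 of the 78 genes, 10 of them synthetases, and both strands were searched. The forms differ in 1 letter and cannot match at the same place. TTGCATCA occurred in the promoters of 4 of the 10 synthetases (Aars, Iars, Tars and Yars) and of 0 of the 48 other members, against 1.03% of 27025 genes. TTTCATCA occurred in 2 of the 10 (Aars and Gars) and in 2 of the 48 (Eef2k and Eif2s3x), against 1.15%. The 60-base stretches below lie at chr8:111033704-111033763 (Aars, plus strand), chr15:11399640-11399699 (Tars, minus strand), chr4:129189863-129189922 (Yars, plus strand) and chr6:55037945-55038004 (Gars, plus strand). The match is in capitals, and in Yars it is read on the other strand.
Aars: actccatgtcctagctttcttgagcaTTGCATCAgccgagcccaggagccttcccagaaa
Tars: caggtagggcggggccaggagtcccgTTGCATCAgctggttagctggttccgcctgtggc
Yars: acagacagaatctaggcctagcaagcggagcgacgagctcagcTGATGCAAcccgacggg
Gars: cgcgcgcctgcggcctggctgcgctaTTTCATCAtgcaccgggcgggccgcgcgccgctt

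The 5 synthetases with a match were not all called alike. Gars and Yars were higher in NDRG1-eGFP than in both other groups, Aars was higher than in PDGFRa-GFP, and Tars (0.32 against PLP-GFP, limma adjusted p = 0.0835) and Iars (-0.08, adjusted p = 0.794) were not called. Of the 5 with a promoter entry and no match, Dars and Sars were called higher in both comparisons and Qars against PLP-GFP (0.59, limma adjusted p = 0.00834), while Eprs and Kars were not called. The length removal changed these calls. Of those with a match, Aars, Tars (0.49 and 0.44, limma adjusted p = 0.0161 and 0.042) and Yars were then called higher in both comparisons, and Gars and Iars in neither. Of those without, Eprs and Sars were called in both, Dars and Qars against PLP-GFP only, and Kars in neither. A match describes letters and is not evidence of binding.

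The list of factors that act beside the members covered termination, ribosome recycling and binding of the poly(A) tail. Of its 27 genes, NDRG1-eGFP had 9 higher and 9 lower when set against PLP-GFP, where 26.1% and 22.2% of all genes were, and 0 higher and 7 lower against PDGFRa-GFP, where 10.7% and 10.4% were. PLP-GFP against PDGFRa-GFP gave 2 higher and 1 lower, beside 8.46% and 8.53%. Removing the length trend gave 3 and 8, 0 and 7, and 0 and 1. The shares of genes were then 18.2% and 15.6%, 9.11% and 8.95%, and 3.73% and 4.38%. The smallest adjusted p was that of Tpt1, a translationally controlled protein with all coding windows shared, at -2.06 and -2.97 in NDRG1-eGFP (limma adjusted p = 7.3e-05 and 5.9e-06). Genes with few or no shared coding windows were also among the lower ones. Paip2b, an inhibitor of the poly(A)-binding protein, was at -1.63 and -0.96 (limma adjusted p = 0.00013 and 0.0061), and Gcn1l1, the partner through which Gcn2 senses uncharged transfer RNA, with 3.8% shared, at -1.37 and -0.77 (adjusted p = 0.00017 and 0.0095). Both were higher in PLP-GFP than in PDGFRa-GFP, by 0.66 and 0.60 (limma adjusted p = 0.037 and 0.035), calls that were lost with the length trend removed (0.50 and 0.33, adjusted p = 0.139 and 0.183). So was that of Gcn1l1 against PDGFRa-GFP (-0.40, limma adjusted p = 0.0805).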

How the data were processed

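Each file held a gene symbol and a log2 normalized value for 1 library, as deposited and per the file headers; the sorted values were nearly the same in every library. BWA, DESeq2 1.2.5 and mm10 are named in the submitters' processing notes, without roles. Read counts were not analysed here, so depth is unknown. The members and gene lists were chosen with earlier results of these data known. limma (3.58.1, R 4.3.3) with an intensity trend was fitted to the log2 values of all 9 libraries, a term per group, over all 11315 genes (a filter that asked 3 libraries for a value of 1 or more removed 0), with Benjamini-Hochberg adjustment and two-sided tests. An exact permutation test of 3 against 3 libraries cannot go below 0.1 and was not used. Transcript lengths, 50-base shared windows and overlaps came from GENCODE M21 on GRCm38 for 11268 symbols. The length of a gene was that of its longest transcript in the basic set, and which transcripts the cells expressed was not tested. The length trend was removed by loess (span 0.5) per library. Named genes were all of eIF2, eIF2B, the kinases, 4E-binding genes and the Eif4a and Eef1a paralogs, the called members with the smallest adjusted p of each other complex (up to 4 each way), and the 5 highest and 5 lowest log2 fold changes. Pathway genes were named by smallest adjusted p, within each direction for the integrated stress response. The fit was tested on simulated data. Alternatives were other centrings, filters, added constants, thresholds, a replicate block, fits of 2 groups, length and shared-gene corrections, and leaving out each library.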

Additional observations from a re-analysis of the deposited data

How the results depend on the processing

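Depth is unknown, and 3 libraries per group limit precision. The counts in this section cover members only. Shares over all genes are given above for length removal, for recentring and for the fit without PDGFRa-GFP replicate 3. They are not given for the other settings, so whether these counts followed calls over all genes was not tested. Of 153 results for 51 named members, those called kept their sign under each of the 22 alternatives that held the gene. Some alternatives changed only a threshold and left the values as they were. Results not called were not counted in this way, and their sign could change. Eif2b5 against PDGFRa-GFP, for example, was at 0.126, and at -0.035 with the length trend removed. Asking for a log2 fold change of 1 or more in size left 4 members higher and 7 lower in NDRG1-eGFP against PLP-GFP, 0 and 0 in PLP-GFP against PDGFRa-GFP, and 0 higher in NDRG1-eGFP against PDGFRa-GFP. An adjusted p under 0.01 left 1 higher and 0 lower in PLP-GFP against PDGFRa-GFP and 4 higher in NDRG1-eGFP against PDGFRa-GFP. Leaving out genes with over 5% of transcript windows shared left 60 members, with 5 lower against PLP-GFP and 0 lower against PDGFRa-GFP. Doing this with the length trend removed gave 3 and 1, and 0 lower in PLP-GFP against PDGFRa-GFP, where the length removal alone left 1. Fits of only the 2 groups gave 3 lower there and 4 higher in NDRG1-eGFP against PDGFRa-GFP, where recentring on the median ratio gave 7. The numbers do not pair the samples (correlations of same-numbered deviations from -0.234 to 0.094), and the replicate block gave 1 lower in PLP-GFP against PDGFRa-GFP and 6 higher in NDRG1-eGFP against PDGFRa-GFP. Among the factors, recentring on the median ratio and the fit of 2 groups each ended the calls of Eif2a, Eif5b, Eif2b3, Eif3b, Eif3g and Eif3k over PDGFRa-GFP. The block ended these except that of Eif2a, and those of Aars, Dars, Gars, Sars and Wars. The block and the fit of 2 groups each ended the lower call of Eif3m. The causes were not tested beyond fewer members in fits without shared genes.

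Leaving out each of the 9 libraries gave ranges of 16 to 34 higher and 12 to 16 lower for NDRG1-eGFP against PLP-GFP, 1 to 8 and 0 to 14 for PLP-GFP against PDGFRa-GFP, and 5 to 30 and 9 to 14 for NDRG1-eGFP against PDGFRa-GFP. The counts for PLP-GFP against PDGFRa-GFP were 8 and 14 without PDGFRa-GFP replicate 1, 1 lower without PDGFRa-GFP replicate 2, 1 and 0 when PLP-GFP replicate 2 or 3 was left out, and 3 lower without NDRG1-eGFP replicate 2. The higher count for NDRG1-eGFP against PDGFRa-GFP was 10, 9 and 30 without PDGFRa-GFP replicates 1, 2 and 3, 7 and 5 without NDRG1-eGFP replicates 1 and 2, and 10 when PLP-GFP replicate 3 was left out. Leaving out a library of the third group ended calls of Eif5b, Eif2b3, Eif3b, Eif3i, Eif3k, Eif3m, Eef2, Aars, Hars and Sars, each of which leaving out a library compared had ended too.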
